A study of Caenorhabditis elegans with 2 samples.

Results

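The molting enzymes and secreted molting proteins are 10 genes, mlt-7, mlt-9, mlt-10, mlt-11, nas-36, nas-37, bli-3, bli-5, lrp-1 and lpr-3, named from a list and found by symbol among 19973 nuclear protein-coding genes. The study mapped where ELT-3 sits on the genome, by ChIP-seq of whole C. elegans larvae at the L1 stage. The animals were of mixed sex and strain OP75, and the labels give elt-3 as the antibody. This strain carries unc-119(ed3) III and the transgene wgIs75, and it stably expresses ELT-3 with GFP and FLAG at its C terminus. All samples form 1 group of 2 biological replicates from the same line, so no second genotype, stage or treatment was compared. The labels give no time within the L1 stage, and the control experiment they name is not analysed here.

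The authors' lists, in genome build ce11, hold 30000 regions for the replicates pooled, 30000 for replicate 1, 15646 for replicate 2 and 253 in the optimal set. The optimal set equals the 253 pooled regions of largest signal. The signal value is the authors' score per region, without a stated scale, and the sources used here give no read depth. Regions are ranked by it within each list, rank 1 being the largest. A region was counted for a gene when its summit lay inside the gene or within 5000 bp of it, and 86 of the 30000 pooled regions met this. By the authors' titles, all lists but the optimal set mix peaks with background.

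Nematodes grow through larval stages that each end in a molt, in which the epidermis secretes a new cuticle and detaches and sheds the old one. Matrix proteins are cross-linked by an oxidase and a peroxidase, secreted proteases and their inhibitors act on the old cuticle, and endocytic receptors and lipid-binding proteins serve the epidermal surface. ELT-3 belongs to the GATA family of zinc finger transcription factors and is made in the epidermis. GATA factors bind words of the form WGATAR, in which W is A or T and R is A or G.

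The bases under 4 strong pooled regions of mlt-7, lpr-3 and mlt-11 are shown to set the GATA word beside the signal. Each line gives the summit and 50 bases to either side, on the plus strand of WBcel235 as held by RefSeq, with capitals for WGATAR on either strand. The first 2, both among the 1000 strongest pooled regions, each held 1 such word, and the next 2 held none. The 4 are the strongest by pooled rank, leaving out UTRs and the chromosome of lrp-1, bli-3 and nas-36. They do not show where the word ends, since 7 of 15 member regions between ranks 1000 and 5000 held it. Of the regions left out between ranks 1000 and 2835, lrp-1 at ranks 1060 and 2511 and bli-5 at rank 2333 held it. nas-36 at rank 1100, bli-3 at ranks 1262 and 1766 and lrp-1 at rank 1706 did not.
mlt-7 upstream, chrII:4391170-4391270, pooled rank 744: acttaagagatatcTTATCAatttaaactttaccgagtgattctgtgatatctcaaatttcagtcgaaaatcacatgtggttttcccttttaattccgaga
lpr-3 upstream, chrX:11057197-11057297, pooled rank 815: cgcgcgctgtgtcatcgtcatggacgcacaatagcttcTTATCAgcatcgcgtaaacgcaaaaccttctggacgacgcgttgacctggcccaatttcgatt
lpr-3 downstream, in a coding exon of lpr-5, chrX:11062686-11062786, pooled rank 1507: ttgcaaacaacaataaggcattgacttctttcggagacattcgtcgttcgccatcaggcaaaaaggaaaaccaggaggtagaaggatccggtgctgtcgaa
mlt-11 coding exon, chrV:20673327-20673427, pooled rank 2835: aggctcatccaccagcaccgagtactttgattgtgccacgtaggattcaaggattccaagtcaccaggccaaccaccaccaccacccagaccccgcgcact
Both words read TTATCA on the plus strand, the reverse complement of TGATAA. Each overlaps, shifted by 1 base, a match to GATAAG on the same strand as TGATAA, a form of the GATA word that stood within 50 bp of the summit in 5.52% of all pooled regions and in 19.4% of those ranked 1 to 1000.

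No optimal region lay within 5000 bp of any of the 10 genes, where 3.24% of all protein-coding genes had one. At that background a list of 10 genes without an optimal region is no sign of depletion. The nearest optimal region to any of them lay 9573 bp outside nas-37, with a signal of 42.9 and rank 245, and the nearest 5′ end to it was that of ZC506.1. Every member had at least 1 pooled region in reach, as did 96.4% of all protein-coding genes, so presence in that list does not set these genes apart. A replicate 1 region was in reach of all 10 against 96.8% of genes, and a replicate 2 region in reach of all 10 against 84.2%.

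Below the optimal set, lrp-1, mlt-7 and lpr-3 had the strongest regions. These 3 of 10 genes held a pooled region ranked 1 to 1000, against 11.2% of all protein-coding genes. No test was made of this count, since the list is short and was chosen with results known. The median best rank of the members was 1798, against 5797 over all protein-coding genes and 4370.5 over 34 other molting genes. The 34 are not fully separate from the members, since the best region of bli-3 (rank 1262) was also that of its neighbour duox-2. The members also offered more room, with intervals (the gene and its flanks) of 12129 to 29968 bp against a median of 12027 bp. Whether interval length bears on these ranks was not tested. Just inside the limit of 1000 stood lpr-3 at rank 815, and just outside stood an upstream lrp-1 region at rank 1060 and nas-36 at rank 1100.

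**Figure D1:**
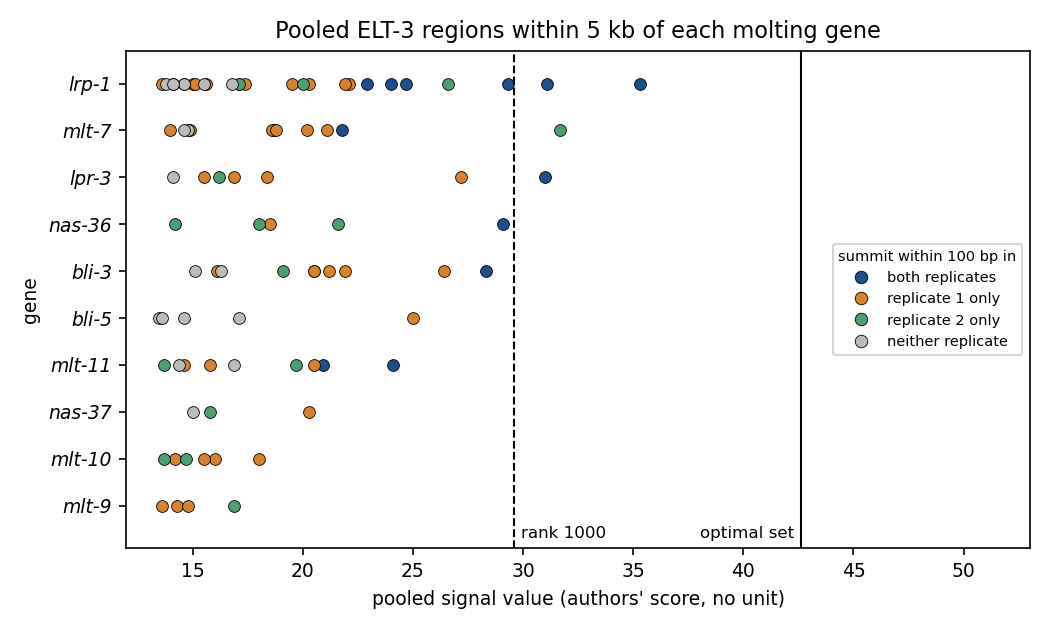
Signal values (horizontal axis, authors' score) of the 86 pooled regions, 1 point per region and 1 line per gene, ordered by best rank and coloured by the replicate lists with a summit within 100 bp. All points lie left of the optimal set's lowest signal of 42.6, and 4 lie right of the dashed line at rank 1000 (signal 29.6).

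By best pooled signal the order was lrp-1 (35.3), mlt-7 (31.7), lpr-3 (31.0), nas-36 (29.1), bli-3 (28.3), bli-5 (25), mlt-11 (24.1), nas-37 (20.3), mlt-10 (18) and mlt-9 (16.9). Neighbours in this order were 1.02 to 1.19-fold apart. Where both replicates listed a member region, their signals, each on its own list's scale, were a median of 1.26-fold apart. The pooled list gives 1 value per region and no spread of it, so whether neighbours in the order differ was not tested. The order was not the same in the replicates. In replicate 1 the members with a region ranked 1 to 1000 were mlt-11, lrp-1, bli-3 and nas-37, and in replicate 2 they were mlt-7, lpr-3, nas-36 and lrp-1. Of all protein-coding genes 11.8% and 11.7% had such a region. lrp-1 stood in both, and no single member region was ranked 1 to 1000 in both replicates.

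BLI-3 and MLT-7 are the oxidative enzymes of this group. BLI-3 is a dual oxidase that makes hydrogen peroxide for the cross-linking of tyrosines in cuticle collagens, and MLT-7 is a heme peroxidase that works with it. bli-3 lies on the minus strand of chromosome I from 145968 to 154855 and had 10 pooled regions. The strongest, from 146731 to 146980, had a pooled signal of 28.3 (rank 1262). Replicate 1 and replicate 2 each gave it a signal of 13.1, at ranks 6197 and 2817. Its summit lay in a coding exon of bli-3 near the 3′ end of the gene, 7999 bp from the 5′ end. The second, at 26.4 (rank 1766), lay in a coding exon of the neighbouring oxidase gene duox-2, 3879 bp past the 3′ end of bli-3, and was listed in replicate 1 (19.1, rank 813) and not in replicate 2.

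At the 5′ end of bli-3 itself stood a weaker region. Its summit lay 73 bp into the gene, with a pooled signal of 21.2 (rank 5566) and 13.3 in replicate 1, and the nearest replicate 2 summit was 4679 bp away. A region 1282 bp upstream had 20.5 (rank 6698) and was likewise listed in replicate 1 alone. WGATAR stood at 2 of the 10 bli-3 regions, neither of them at the 5′ end. The bli-3 regions were thus strongest at its 3′ side, where F53G12.18 and duox-2 also lie. The nearest 5′ end to the regions of 28.3 and 26.4 was that of F53G12.18, 2045 and 2722 bp away.

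mlt-7 lies on the plus strand of chromosome II from 4393007 to 4404850 and had 11 pooled regions. The strongest is the first sequence shown, from 4391095 to 4391344, in intergenic sequence 1787 bp before the mlt-7 5′ end, which is also the nearest one. Its pooled signal was 31.7 (rank 744). Replicate 2 gave it 22.1, rank 243, the highest rank of any member region in any list. The nearest replicate 1 summit was 843 bp away, although its list is the longer one and reaches down to a signal of 8.12. Of the replicate lists, only that of replicate 2 held this region. What replicate 1 added to its pooled signal cannot be judged from the lists. The other mlt-7 regions showed the opposite pattern, with 7 listed in replicate 1 alone, 1 in both and 2 in neither. Of these, 5 lay in introns of mlt-7, with pooled signals from 14.6 to 20.2.

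The protease inhibitor genes mlt-11 and bli-5 and the secreted protein gene mlt-10 had no region ranked 1 to 1000 in the pooled list. MLT-11 carries many Kunitz-type protease inhibitor domains and BLI-5 is a small protein with such a domain. mlt-11, on the plus strand of chromosome V from 20667205 to 20678537, had 9 pooled regions, of which the strongest is the fourth sequence shown. Its pooled signal was 24.1 (rank 2835), with 14 in replicate 1 and 9.03 in replicate 2. The highest replicate 1 rank of any member region, 310 with a signal of 23, belonged to another coding exon of mlt-11, 2357 bp from the 5′ end in the pooled list. The nearest replicate 2 summit was 1745 bp from it, and pooled it stood at 20.5 (rank 6616). A region 561 bp upstream of mlt-11 had 14.6 pooled and 10.3 in replicate 1. None of the 9 held WGATAR within 50 bp of the summit.

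bli-5, on the minus strand of chromosome III from 13427640 to 13429768, had 5 pooled regions, and none lay within the gene. The strongest, at 25 (rank 2333) pooled and 14.9 in replicate 1, lay in the 5′ UTR of exo-1, 4030 bp past the 3′ end of bli-5. The 4 others, from 13.5 to 17.1, had no summit within 100 bp in either replicate. For each of the 5, the nearest 5′ end belonged to a gene other than bli-5. mlt-10 encodes a secreted proline-rich protein of a nematode family and lies on the plus strand of chromosome II from 546705 to 552032. Its 6 pooled regions had signals from 13.7 to 18, 4 listed in replicate 1 alone and 2 in replicate 2 alone. The strongest, at 18 pooled (rank 11583) and 11.4 in replicate 1, lay in a coding exon of mlt-10, 5113 bp from its 5′ end. The nearest 5′ end to that summit, 36 bp away, was that of lips-7. The region nearest to the mlt-10 5′ end, 150 bp into the gene in a coding exon, had 14.7 pooled and 10.2 in replicate 2.

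The astacin metalloproteases NAS-36 and NAS-37 are needed to release the old cuticle. nas-36, on the plus strand of chromosome I from 7527224 to 7531715, had no pooled region inside the gene. Its strongest, from 7533999 to 7534248, had 29.1 pooled (rank 1100), 14.4 in replicate 1 (rank 3837) and 13.6 in replicate 2 (rank 2275). Both replicates listed it, but it lay in a coding exon of C26C6.4, 2409 bp past the 3′ end of nas-36. The 1 region upstream, at 21.6 pooled and 17.1 in replicate 2 (rank 750), lay in an intron of goa-1, a G protein alpha subunit gene. nas-37, on the minus strand of chromosome X from 9944844 to 9949063, had the fewest regions, 3. The strongest, at 20.3 pooled and 19.0 in replicate 1 (rank 830), lay in the 5′ UTR of C17G1.5. The region inside nas-37, at 15, had no summit within 100 bp in either replicate. For both protease genes, no pooled summit lay between 2000 bp upstream and 500 bp downstream of the 5′ end. The 8 other members had one there, against 57.0% of all protein-coding genes. For bli-5 it was a region of 14.6 (rank 24106) in an intron of trf-1, with no summit within 100 bp in either replicate. The replicate 1 list gave the same split of the genes, and that of replicate 2 did not. In replicate 2, nas-36 had a region in this window (10.5, rank 7436), and mlt-11, bli-5, bli-3 and mlt-9 had none.

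**Figure D2:**
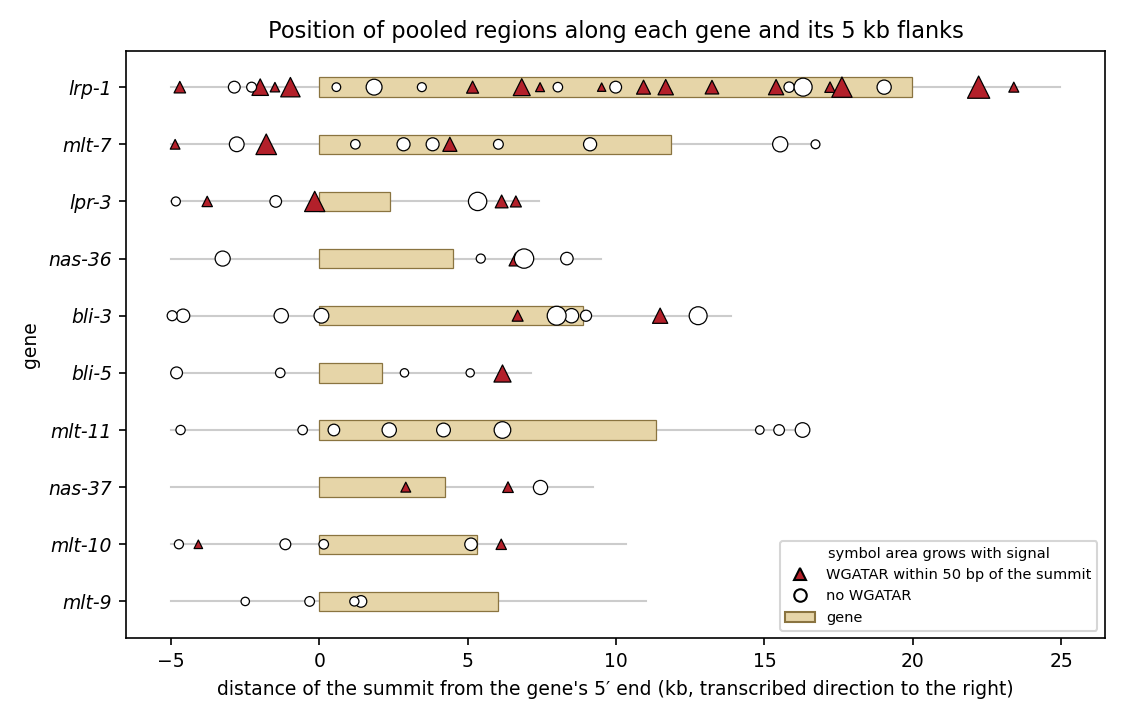
Summit positions of the 86 pooled regions as distance from each gene's 5′ end in kb, with the gene as a bar and its 5 kb flanks as a line. Triangles have WGATAR within 50 bp of the summit, circles have none, and symbol area grows with signal. lpr-3 and mlt-7 have their largest symbol upstream, while lrp-1 and nas-36 have theirs past the 3′ end.

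LRP-1 is a large endocytic receptor of the LDL receptor family, related to megalin, at the apical surface of the epidermis, and is needed for molting. lrp-1 is the longest member, 19968 bp on the plus strand of chromosome I from 7614176 to 7634143, and held 26 of the 86 pooled regions. Per 10 kb of its interval this was 8.68 regions, against 2.99 over the nuclear genome, and 0.205% of protein-coding genes reached that density. In replicate 1 the density was 8.68 per 10 kb, reached by 0.165% of genes, and in replicate 2 it was 3.34 against 1.56 over the genome, reached by 9.30% of genes. For the other 9 members together the pooled density was 4.09 per 10 kb. Among the other molting genes, cpz-1 had a higher pooled density than lrp-1, at 9.38 per 10 kb (reached by 0.0801% of genes). The next of them was mlt-2 at 7.59 (0.866%).

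The strongest lrp-1 region, from 7636268 to 7636517, had 35.3 pooled (rank 468), 20.8 in replicate 1 (rank 528) and 15.3 in replicate 2 (rank 1262). It lay in a coding exon of the next gene, capg-1, a condensin subunit gene, 2250 bp past the 3′ end of lrp-1. The strongest one inside lrp-1, from 7631662 to 7631911 in a coding exon, had 31.1 pooled (rank 805), 13.4 in replicate 1 (rank 5519) and 16.9 in replicate 2 (rank 811). Upstream, a region with its summit 973 bp before the 5′ end had 29.3 pooled (rank 1060), 20.5 in replicate 1 (rank 557) and 9.87 in replicate 2 (rank 10045). All 3 were listed in both replicates. The downstream and upstream ones stood higher in the ranks of replicate 1, and the one inside the gene in those of replicate 2. Each of the 3 pooled summits had WGATAR within 50 bp, as did the matching replicate 2 summits. In replicate 1 the summit of the downstream region had it, and those of the upstream and inside regions did not. Of the 26, 6 lay upstream, 18 inside and 2 downstream. By annotation 16 summits were in coding exons, 6 between genes and 4 in introns.

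**Figure D3:**
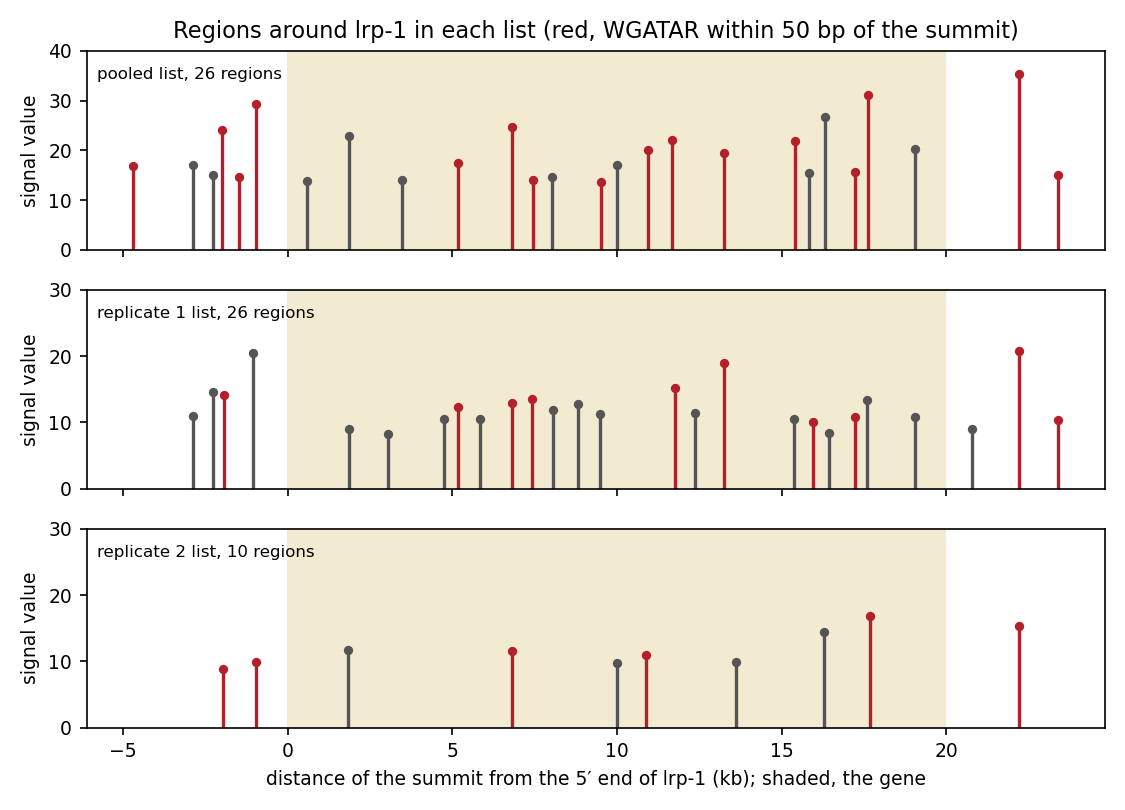
Signal value (vertical axis, authors' score) of each region around lrp-1 against distance from its 5′ end in kb, in the pooled list (26 regions), replicate 1 (26) and replicate 2 (10). The gene is shaded, and red marks summits with WGATAR within 50 bp. The pooled region of 35.3 past the 3′ end is near the top in both replicates.

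In the pooled list the secreted protein genes lpr-3 and mlt-9 differed in their best signal, at 31.0 and 16.9. In the replicates' own lists they were closer, at 18.1 and 17.0 in replicate 1 and 18.1 and 15.4 in replicate 2. LPR-3 is a lipocalin, a lipid-binding secreted protein of the apical extracellular matrix. lpr-3 is a short gene of 2393 bp on the plus strand of chromosome X from 11057401 to 11059793, with 7 pooled regions, none inside it. Its strongest is the second sequence shown, from 11057122 to 11057371, in intergenic sequence 154 bp before the 5′ end. It had 31.0 pooled (rank 815), 15.3 in replicate 1 (rank 2791) and 18.1 in replicate 2 (rank 578). Of the 4 member regions ranked 1 to 1000, this was the one listed in both replicates whose nearest 5′ end was that of the member. The WGATAR word lay 7 bp from the pooled summit. Replicate 2 placed its summit 61 bp away from the pooled one, with no such word within 50 bp. Past the 3′ end, a region in a coding exon of the paralogous lipocalin gene lpr-5 had 27.2 (rank 1507) and 18.1 in replicate 1, and the nearest replicate 2 summit was 1280 bp away.

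MLT-9 is known from screens for genes needed in molting. mlt-9, on the minus strand of chromosome X from 15101786 to 15107797, had 4 pooled regions and the lowest best pooled signal of the group, 16.9 (rank 14857), in a coding exon. Replicate 2 gave that region 15.4 (rank 1242), and the nearest replicate 1 summit was 198 bp away. An overlapping pooled region, at 14.3 (rank 25691) in an intron, had 17.0 in replicate 1 (rank 1528), with the nearest replicate 2 summit 227 bp away. So each replicate listed a region at this place, with summits too far apart to match, and the pooled list holds both. By best signal mlt-9 was last in the pooled list only, as mlt-10 stood lower in replicate 1 (13.2) and replicate 2 (11.2). A region 325 bp upstream of mlt-9 had 14.8 pooled and 11.2 in replicate 1.

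Replicate support over all member regions was close to that of the whole list. Of the 86, 13 (15.1%) had a summit within 100 bp in both replicates, 41 in replicate 1 alone, 15 in replicate 2 alone and 17 in neither. Over all 30000 pooled regions 15% were listed in both. The 13 were 6 of lrp-1, 2 each of mlt-11 and bli-3, and 1 each of nas-36, mlt-7 and lpr-3, while mlt-10, bli-5, nas-37 and mlt-9 had none. Over these 13 regions the replicate signals had a Spearman correlation of 0.478, and the largest gap was 2.08-fold. The regions share their libraries, so this describes these data only.

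**Figure D4:**
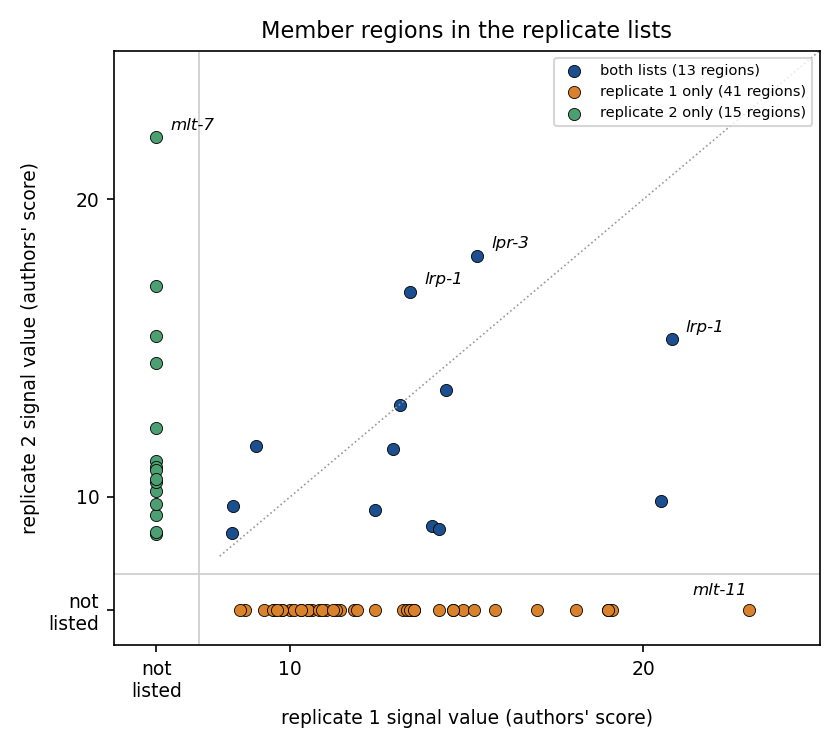
Signal in replicate 1 (horizontal axis) against replicate 2 (vertical axis), both the authors' scores, for the 69 member regions with a summit in at least 1 replicate list. Regions absent from a list are drawn in the margin named not listed, and the dotted line marks equal signals. The mlt-7 region of 22.1 in replicate 2 and the mlt-11 region of 23 in replicate 1 each lie in a margin.

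WGATAR stood within 50 bp of 31 of the 86 summits (36%), against 21.6% of all pooled regions and 19.8% of windows of that length tiled over the nuclear genome. The 4 regions ranked 1 to 1000 each held one, against 40.4% of all regions of those ranks. Below that, down to rank 5000, it was 7 of 15 (46.7%, against 23.7%), from there to rank 15000 it was 6 of 27 (22.2%, against 20.8%) and in the rest 14 of 40 (35.0%, against 20.3%). Much of this came from lrp-1, whose regions at ranks 468, 805, 1060, 2511, 2920, 4516 and 4780 held the word. Its regions at ranks 1706 and 3792 did not. At lrp-1 16 of 26 summits had the word (61.5%), against 24.0% of windows tiled over its interval. Without lrp-1 the share was 15 of 60, or 25%. The lrp-1 share was 38.5% of 26 summits in replicate 1 and 60.0% of 10 in replicate 2. In the other genes the share in those lists was 20.4% and 22.6%, against 21.4% and 23.6% of all regions of the lists. The remaining genes ranged from none of 9 in mlt-11 and none of 4 in mlt-9 to 4 of 7 in lpr-3 and 2 of 3 in nas-37. A match to these letters is a description and not a bound site.

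**Figure D5:**
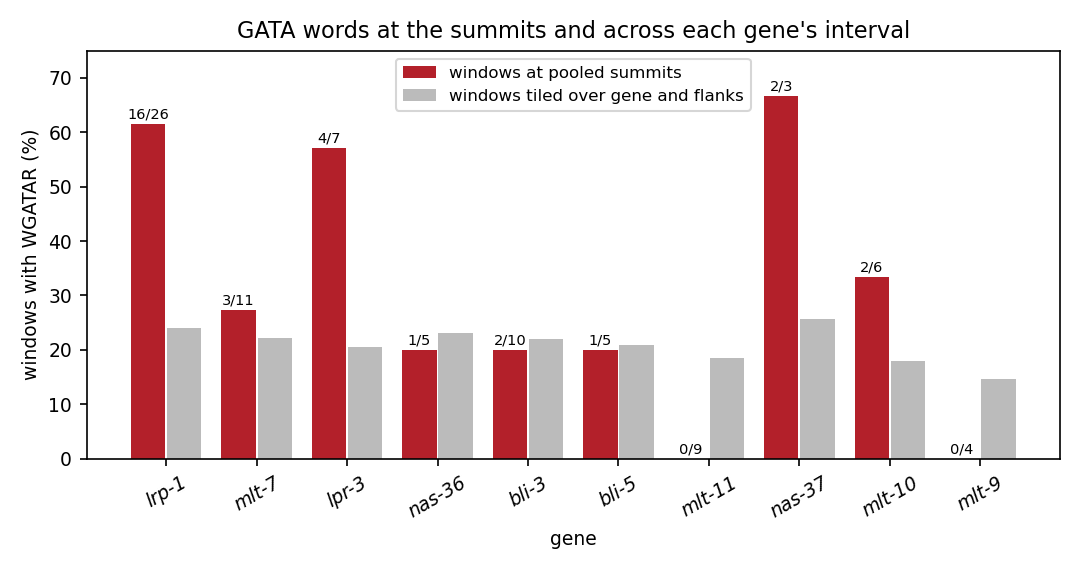
Percent of windows, 50 bp to each side of their centre, holding WGATAR at the pooled summits of each gene (red, with counts) and tiled over the gene and its 5 kb flanks (grey). lrp-1, with 16 of 26, stands above its grey bar of 24.0%, and mlt-11 and mlt-9 have no summit with the word.

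Position also varied among the genes. Of the 86 summits 37 lay inside the member, 26 upstream and 23 downstream. By annotation 37 were in coding exons, 25 in introns, 20 between genes and 4 in UTRs, counting any protein-coding gene. For 44 the nearest 5′ end was that of the member, and for the other 42 it was that of another gene, including the strongest regions of lrp-1, nas-36, bli-3, bli-5, nas-37 and mlt-10. Which gene, if any, such a region acts on was not tested.

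Among 34 other genes of molting, 1 had an optimal region and 6 had a pooled region ranked 1 to 1000, against 3.24% and 11.2% of all protein-coding genes. The 6 were 1 of 4 genes of oxidative cross-linking, 1 of 7 proteases and related enzymes, 2 of 6 genes of uptake and trafficking, 1 of 10 of the apical matrix and secretion and 1 of 3 of blisters and cuticle, with none of 4 transporter-like genes. The optimal one was at cpz-1, which encodes a cathepsin Z-like cysteine protease needed for molting. Its summit lay in a cpz-1 intron 427 bp from the 5′ end, with 49.5 pooled (rank 141), 31.5 in replicate 1 (rank 75) and 20.7 in replicate 2 (rank 311), and no WGATAR. A second cpz-1 region, 72 bp upstream, had 36.6 (rank 416) and 30.4 in replicate 1, was not listed in replicate 2 and held 3 such words. All the members' pooled signals were below both. dab-1 encodes an adaptor for receptors of the LDL family, and its region in an intron 458 bp from the 5′ end had 31.3 pooled and 16.0 in replicate 1. Replicate 2 had no summit within 100 bp of it, and its strongest dab-1 region (15.9) had its summit 329 bp from the 5′ end. tsp-15 encodes a tetraspanin that acts with BLI-3, and its region, in a coding exon of madd-4, had 31.5 pooled, 12.8 in replicate 1 and 17.5 in replicate 2. The 3 others were bli-1 (33.3), qua-1 (33.2) and mlt-2 (34.3), whose regions had the nearest 5′ end in col-80, col-76 and col-61, each a collagen gene. The bli-1 summit lay in an intron of dph-2, the qua-1 summit in an intron of qua-1 itself and the mlt-2 summit between genes. Of the proteases and related enzymes, nas-6, nas-7, nas-38, bli-4, cpl-1 and acn-1 had no region of those ranks.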

How the data were processed

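ChIP-seq region lists of ELT-3 in L1 larvae were used as deposited, in narrowPeak form and build ce11. Each region's signal value is a score given by the authors. Its scale, the region caller, the aligner and the threshold of the optimal set are not stated in the sources used here. Per the deposited notes, each replicate list used that replicate's alignment with a control, the pooled list used both alignments with a control, and the optimal set was derived from the 3 others by IDR, which keeps regions that rank reproducibly. The 4 lists in ce10 were not used.

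Genes came from Ensembl release 115 of WBcel235, the same assembly, and bases from the RefSeq copy of it. The summit is the position each list gives for a region. Summits matched between lists within 100 bp. WGATAR was sought on both strands within 50 bp of the summit. Tables were made with Python 3.11.15 and pandas 2.3.3, and the counting and word search were checked on made-up data with known answers. No p-value was computed, since 1 group of 2 replicates holds no contrast. Depth is unknown, so no interval on a signal is given. Genes, lists and alternatives were chosen with earlier results of these data known. Every member was named with its strongest region, as were all member regions of pooled rank 1 to 1000 and each other molting gene with such a region.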

Additional observations from a re-analysis of the deposited data

How the results depend on the processing

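The count of members with an optimal region was 1, and not 0, when 10000 bp around the gene were searched (5.51% of all genes), and it ranged from 0 to 1 when the 253 strongest regions of 1 replicate replaced the optimal set, the 1 being mlt-7 in replicate 2 (2.92% of genes for replicate 1 and 3.29% for replicate 2). Members with a pooled region ranked 1 to 1000 were 3, and 1 with a limit of 500 (5.89% of genes), 5 with 2000 (21.2%) and 4 in each replicate's list. For the other molting genes the count of 6 became 3 near the 5′ end (3.43% of genes), 1 with a limit of 500, 11 with 2000 and 6 in each replicate's list. All 10 members had a region in either replicate's list. The 86 pooled regions became 52 within 2000 bp and 14 near the 5′ end, and ranged from 41 to 80 in the replicates' own lists. The share listed in both replicates fell to 8.14% with a 50 bp match, and that of all pooled regions to 10.3%. The share with a GATA word was 16.3% within 25 bp (11.4% of all regions), 54.7% within 100 bp (38.3%), 12.8% for GATAAG (5.52%), and 26.2% to 31.7% in the replicates' own lists (21.4% in replicate 1 and 23.6% in replicate 2 over all regions). Without lrp-1, an alternative added after the data were seen, 60 regions were left and the share was 25%. The causes were not tested. Depth is unknown, so an unlisted region may lie under a list's lowest signal. No paired analysis was possible because there is 1 group.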

Other observations

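Some replicate regions around the genes had no pooled summit within 100 bp. These were 26 of 80 in replicate 1, the strongest at lrp-1 with a signal of 12.8 (rank 6847), and 13 of 41 in replicate 2, the strongest at bli-5 with a signal of 11.8 (rank 4607). nas-36 had 4.83 replicate 2 regions per 10 kb, a density that 1.71% of protein-coding genes reached, against 3.45 in replicate 1, which 39.8% reached. Most of these replicate 2 regions lay outside nas-36, and the pooled density was 3.45, which 39.6% reached.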
